A study of Homo sapiens and Mus musculus with 15 samples.

Results

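In RPMI-8226 cells, called 8226 here, 82 autosomal genes were expressed in the drug-naive line and nearly lost in both lines made resistant to a proteasome inhibitor. A gene was included when its mean level over the 3 naive libraries was at least 10 CPM, read counts scaled to each library's total of reads on genes and its mean was below 1/32 of that, or 3.125%, in the bortezomib-resistant and in the carfilzomib-resistant group. The human tables held 23346 genes, of which 8412 were autosomal and reached 10 CPM in naive cells, so the 82 silenced genes were 0.975% of them. The genes were thus chosen by their levels in naive, bortezomib-resistant and carfilzomib-resistant cells, so their levels against naive cells are a description with no test.

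8226 is an established human myeloma cell line, and 5TGM1 is a mouse myeloma line from the C57Bl/KaLwRij strain. RNA was sequenced in 15 libraries, 3 each from naive 8226, bortezomib-resistant 8226, carfilzomib-resistant 8226, naive 5TGM1 and bortezomib-resistant 5TGM1. Per the labels, resistant 8226 cells were kept in 10 nM bortezomib or 10 nM carfilzomib and resistant 5TGM1 cells in 20 nM bortezomib, and cells came off drug 5 days before RNA extraction. Each resistant group is a single line, the labels do not say whether it is a clone, so effects of deriving it, of the drug and of resistance cannot be told apart. Nothing in the labels says that replicates were separate cultures, so the p-values rest on differences among libraries of a group that may be only technical.

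Myeloma cells are malignant plasma cells, the antibody-secreting end stage of B cells. They live in bone marrow, held there by adhesion molecules such as the α4 integrins, and they exchange secreted factors with stroma, bone cells and vessels. A gene can be kept off for many cell generations by DNA methylation at a CpG-rich promoter or by repressive histone marks, which are laid down by methyltransferases, Polycomb complexes and deacetylases. None of those marks was measured here.

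Reads on genes ranged from 39032731 to 46874782 per naive 8226 library, from 31709636 to 34339788 per bortezomib-resistant one and from 41964250 to 58419576 per carfilzomib-resistant one. Over a group's 3 libraries, a count of 0 allows a level of up to 0.0234 CPM in naive, 0.0300 CPM in bortezomib-resistant and 0.0195 CPM in carfilzomib-resistant cells (3 counts over the group; counting error only). Among the 11 plasma cell and myeloma markers, SDC1, IRF4, XBP1 and 6 others were above 10 CPM in all 3 groups, while CD27 and SLAMF7 stayed under 3 CPM. The summed level of this list was 8199 to 9177 CPM in naive, 4156 to 4318 CPM in bortezomib-resistant and 5668 to 5881 CPM in carfilzomib-resistant libraries. T and NK cell markers summed to 9.02 to 14.2 CPM and endothelial markers to under 0.6 CPM in every 8226 library, with KLRD1, CDH5 and CLDN5 at 0 throughout. Macrophage markers summed to 55.7 to 60.0, 62.6 to 66.6 and 175 to 187 CPM in the same order of groups, with FCGR3A at 0, CD14 and CD163 near 0 and ITGAM the main contributor in carfilzomib-resistant cells. Single macrophage markers moved in opposite directions within these sums. In the same order, CD68 stood at 45.6, 9.27 and 13.5 CPM, AIF1 at 2.79, 27.1 and 2.19 CPM and EMR1 at 0.499, 18.0 and 6.29 CPM. Fibroblast markers summed to 7234 to 8380, 2785 to 3156 and 7536 to 8783 CPM, nearly all of it FN1, with LUM and DCN at 0. Erythroid markers summed to 3.24 to 5.97 CPM in naive and under 0.05 CPM in resistant libraries, with HBB at 0 everywhere. The part of these lists in the results below was not tested.

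The 82 genes together held 3795 to 3848 CPM in the naive libraries. They held 9.58, 5.93 and 5.47 CPM in bortezomib-resistant libraries 1 to 3, and 16.02, 18.1 and 16.1 CPM in carfilzomib-resistant libraries 1 to 3. The lowest naive library exceeded every resistant library for all 82 genes, a separation that the choice of genes fixes. In naive cells the median gene stood at 25.4 CPM, with a range of 10.1 to 584 CPM and a median coefficient of variation between libraries of 6.28%. Of the 82, 7 reached 100 CPM and 37 were under 20 CPM.

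The loss went far beyond the threshold for most of them. The median gene kept 0.0664% of its naive level in bortezomib-resistant cells and 0.173% in carfilzomib-resistant cells, and the highest shares kept were 2.34% (PLA2G4D) and 2.86% (KLHL29). No read at all was found for 15 genes in the bortezomib-resistant group and for 16 in the carfilzomib-resistant group, and 29 genes had 3 reads or fewer in each of the 2 groups. UBE2QL1, TMEM132E, ARHGEF4 and CDC42EP1 had 0 reads in all 6 resistant libraries. Bortezomib-resistant library 1 stood apart: reads were found for 58 of the 82 genes there, against 36 and 31 in libraries 2 and 3, and 24 genes had reads in library 1 alone. Without library 1 the rule still chose 82 genes. In bulk RNA, fewer cells that express a gene and less of its RNA per cell cannot be told apart.

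**Figure D1:**
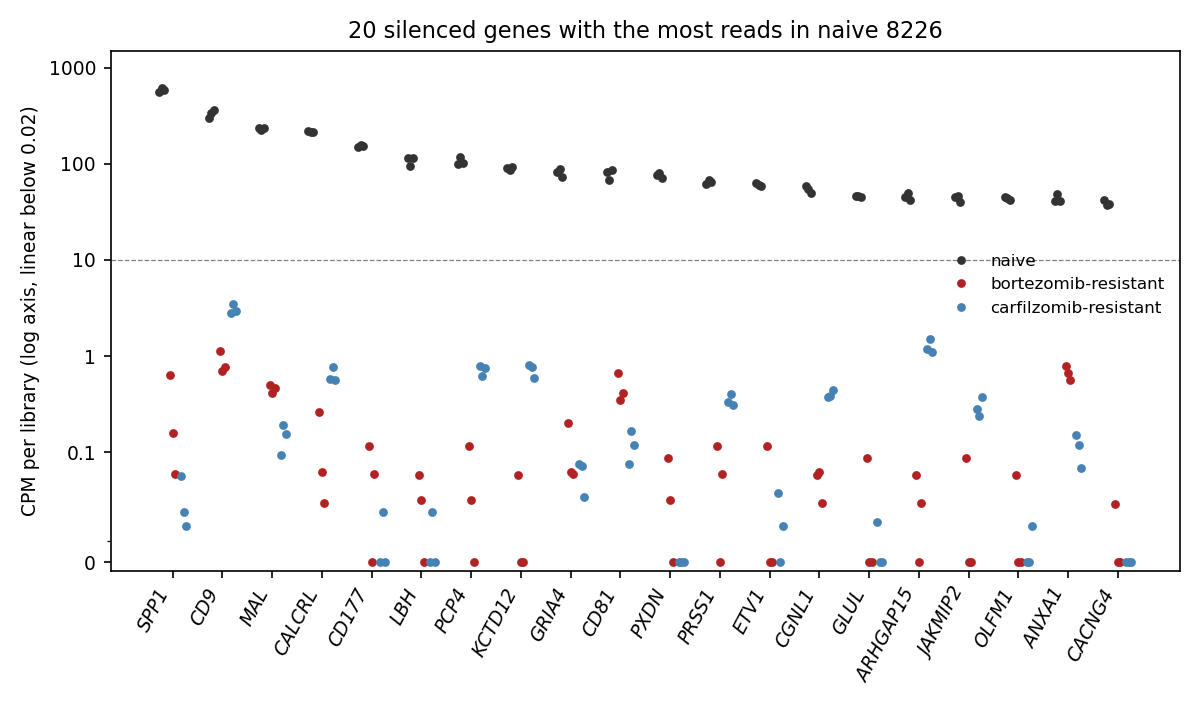
Level of the 20 silenced genes with the most reads in naive 8226, in CPM on a log axis that is linear below 0.02, with a point for each of the 9 libraries. Naive libraries (black) all sit above the dashed line at 10 CPM, and the bortezomib-resistant (red) and carfilzomib-resistant (blue) libraries sit at 3.53 CPM or lower.

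At the fold threshold, the last genes inside it were CLIP4 (2.65% of naive in the resistant line that kept more), ARHGAP15 (2.76%) and KLHL29 (2.86%), and the first outside were KRT6C (3.19%), MYO7A (3.45%) and CDHR1 (3.52%). At the naive minimum, MTUS2 (10.1 CPM), LRRTM3 (10.1 CPM) and LGALS8 (10.3 CPM) were the last inside, and FAM131A (9.99 CPM), TMTC1 (9.86 CPM) and ARHGAP22 (9.74 CPM) the first outside. Below 1/32 of naive were 260 of the 8412 genes (3.09%) in bortezomib-resistant cells and 109 (1.3%) in carfilzomib-resistant cells. The 82 shared genes were 31.5% of the first list and 75.2% of the second, and both lists rest on the same naive libraries.

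Promoter sequences were available for 68 of the 82 genes in a RefSeq table (GRCh38.p14) that gives 250 bases before and 50 after each gene's start. The following 4 show how different the starts of these genes are. They are SPP1 and CD9, which had the most naive reads, ITGA4, the integrin of the marrow niche, and UBE2QL1, the gene with the highest naive level among those with no resistant read. Capitals mark each CG dinucleotide, the site that DNA methyltransferases modify.
SPP1 (chr4:87975464-87975763, plus strand): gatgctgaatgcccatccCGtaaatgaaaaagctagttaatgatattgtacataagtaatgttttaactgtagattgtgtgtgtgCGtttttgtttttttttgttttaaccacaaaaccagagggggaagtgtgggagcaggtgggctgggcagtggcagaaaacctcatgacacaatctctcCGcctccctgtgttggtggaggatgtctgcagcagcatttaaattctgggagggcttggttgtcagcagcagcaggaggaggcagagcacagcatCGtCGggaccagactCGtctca
CD9 (chr12:6199696-6199995, plus strand): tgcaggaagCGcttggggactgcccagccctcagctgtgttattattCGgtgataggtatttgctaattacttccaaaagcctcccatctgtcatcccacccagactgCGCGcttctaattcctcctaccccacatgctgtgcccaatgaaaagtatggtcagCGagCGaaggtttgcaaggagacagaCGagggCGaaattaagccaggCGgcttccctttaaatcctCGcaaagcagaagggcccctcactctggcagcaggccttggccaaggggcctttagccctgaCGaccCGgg
ITGA4 (chr2:181457136-181457435, plus strand): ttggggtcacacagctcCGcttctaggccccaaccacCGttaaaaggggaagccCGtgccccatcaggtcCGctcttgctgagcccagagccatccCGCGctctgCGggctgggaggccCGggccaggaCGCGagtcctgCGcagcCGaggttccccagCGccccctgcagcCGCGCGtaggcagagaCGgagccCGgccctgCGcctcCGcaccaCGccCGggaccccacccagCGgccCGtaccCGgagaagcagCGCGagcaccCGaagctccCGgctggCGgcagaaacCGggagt
UBE2QL1 (chr5:6448609-6448908, plus strand): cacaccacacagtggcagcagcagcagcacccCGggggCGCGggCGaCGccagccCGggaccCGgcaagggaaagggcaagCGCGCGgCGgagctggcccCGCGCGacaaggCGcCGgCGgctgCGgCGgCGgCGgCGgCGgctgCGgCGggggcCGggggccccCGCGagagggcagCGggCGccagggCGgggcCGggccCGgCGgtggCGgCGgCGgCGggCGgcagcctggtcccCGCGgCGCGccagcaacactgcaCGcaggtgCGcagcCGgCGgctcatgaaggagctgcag
SPP1 and CD9 hold few CG dinucleotides. The first has 6 in 300 bases at a GC content of 47.7%, and the other has 12 at 55.3%. ITGA4 has 31 at 72.3% and UBE2QL1 has 47 at 82.3%. A promoter was called CpG-rich when its GC content was at least 50% and its CG count at least 0.6 of the number expected from its C and G content. By that measure SPP1 (0.37) and CD9 (0.53) were not CpG-rich, and ITGA4 (0.80) and UBE2QL1 (0.94) were.

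Of the 68 silenced genes with a sequence, 40 (58.8%, exact 95% interval 46.2% to 70.6%) had a CpG-rich promoter. The share was 86.5% among 6938 other autosomal genes at 10 CPM or more in naive 8226, and 46.9% among all 27305 promoters in the table. The share among the silenced genes lay between these values, and the differences were not tested. The 40 genes with CpG-rich promoters kept a median of 0.0519% of naive in bortezomib-resistant and 0.0940% in carfilzomib-resistant cells. The other 28 kept 0.108% and 0.525%. These medians rest on few reads. In bortezomib-resistant cells 30 of the 40 and 15 of the 28 had 3 reads or fewer over the group, and in carfilzomib-resistant cells 19 and 7. The classes also differed in naive level, with medians of 17.4 and 27.8 CPM, and the difference in share kept was not tested.

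Short core promoter motifs were counted on both strands in the same 300 bases. The letters TATAAA, a classical core promoter element, were found in 8 of 68 silenced promoters (11.8%), in 4.58% of the other expressed ones and in 11.95% of all. GGGCGG (GC box) was found in 54.4%, 73.0% and 44.6%, and CCAAT in 23.5%, 38.1% and 35.7%. A match to such letters is a description and not a binding site. Of the 4 printed promoters, UBE2QL1 held GGGCGG, CD9 held CCAAT, and none held TATAAA.

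Secreted ligands and binding proteins made up 16 of the 82 genes. SPP1 encodes osteopontin, a phosphoprotein that binds integrins and CD44 and is known in bone and bone marrow. It had the highest naive level of all 82, both in CPM and per length (252 RPKM, which is CPM per kilobase of exon). Its naive libraries held 554, 618 and 579 CPM (584 ± 32.3, SD, n = 3). Reads in the bortezomib-resistant libraries numbered 22, 5 and 2, and in the carfilzomib-resistant libraries 3, 1 and 1. SPP1 was 2011-fold lower in bortezomib-resistant cells (95% counting interval 1400 to 3003) and 17931-fold lower in carfilzomib-resistant cells (7683 to 55225), and most of its remaining bortezomib-resistant reads were in library 1. Counting intervals here and below cover only the counting error of reads pooled over a group. They leave out differences between its libraries and are too narrow where libraries differ, as they did for SPP1.

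HGF encodes hepatocyte growth factor, the ligand of the receptor tyrosine kinase MET. Its naive libraries held 16, 15.3 and 15.2 CPM, against 5, 1 and 4 reads in bortezomib-resistant and 12, 12 and 17 reads in carfilzomib-resistant libraries. The groups are far apart, and HGF kept 0.633% and 1.72% of its naive level. MET itself, which the rule did not choose, went the other way. It rose from 0.189 ± 0.0937 CPM in naive to 37.3 ± 2.57 CPM in bortezomib-resistant (log2 fold change 7.43 ± 0.167 SE) and 4.06 ± 0.449 CPM in carfilzomib-resistant cells (4.37 ± 0.213). MET passed the filter on low counts only through the resistant groups, where it stood higher, so no p is given.

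NTF3, the neurotrophin-3 gene, held 10.9, 12.4 and 10.9 CPM in naive libraries, had no read in the bortezomib-resistant group and 7, 5 and 8 reads in the carfilzomib-resistant libraries. It was at least 380-fold lower in bortezomib-resistant cells and 87.5-fold lower in carfilzomib-resistant cells. Loss to near 0 in both lines was also seen for the Wnt agonist RSPO2, the neuropeptide gene GAL, the semaphorin SEMA3C, the growth factor PDGFC and the bone morphogenetic protein BMP7. None of these 5 had more than 3 reads in either resistant group, and their naive means ranged from 11.2 CPM (BMP7) to 39.3 CPM (RSPO2). IGFBP2 and IGFBP5, which bind insulin-like growth factors, went from 18.3 and 30.3 CPM to 2 reads each in the bortezomib-resistant group and to 24 and 8 reads in the carfilzomib-resistant group.

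LGALS8, the galectin-8 gene, is a special case among the secreted proteins. Its own-strand reads went from 10.7, 10.7 and 9.35 CPM in naive libraries to none in bortezomib-resistant and 10, 4 and 8 reads in carfilzomib-resistant ones. Reads on the opposite strand of the gene numbered 7736, 5708 and 8152 over the naive, bortezomib-resistant and carfilzomib-resistant groups, or 60.1 ± 3.27, 57.1 ± 5.43 and 52.9 ± 4.60 CPM. The opposite-strand levels of the 3 groups overlapped, and the loss of LGALS8 was read from counts that keep the strands apart. For 74 of the 82 genes, opposite-strand reads numbered under 10 in each resistant group.

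Receptors and surface antigens made up another 16 genes. CD9 encodes a tetraspanin, a membrane organiser that associates with integrins. Its naive libraries held 300, 340 and 361 CPM (334 ± 30.9), the bortezomib-resistant ones 1.14, 0.694 and 0.764 CPM and the carfilzomib-resistant ones 2.79, 3.53 and 2.93 CPM. CD9 had the most reads of any silenced gene in both resistant groups, with 87 and 468, yet this was 0.259% and 0.924% of its naive level. CD81, another tetraspanin and part of the B cell co-receptor, held 82.2, 68.3 and 86.4 CPM in naive libraries. It had 23, 11 and 14 reads in bortezomib-resistant and 4, 7 and 7 reads in carfilzomib-resistant libraries.

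The co-receptor gene CR2, which encodes complement receptor CD21, was also among the 82. Its naive libraries held 36.4, 35.4 and 34.8 CPM, the bortezomib-resistant ones 0, 1 and 0 reads and the carfilzomib-resistant ones 52, 33 and 57 reads. FCER2, which encodes the low-affinity IgE receptor CD23, went from 36.1 ± 0.542 CPM to 6 and 7 reads over the groups.

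ITGA4 encodes the α4 integrin chain, which pairs with the β1 or β7 chain and binds VCAM-1, fibronectin or MAdCAM-1. Naive libraries held 37.1, 36.8 and 31.9 CPM, and reads in the resistant libraries numbered 1, 0 and 0 (bortezomib) and 2, 0 and 1 (carfilzomib). That is a 3545-fold lower level with a counting interval of 636 to 140032, and a 1816-fold lower one with an interval of 621 to 8810. The transcripts of its partner chains were still present. ITGB7 fell from 2932 ± 319 to 604 ± 26.5 CPM in bortezomib-resistant cells (log2 fold change -2.46, edgeR adjusted p = 6.0e-14) and to 1269 ± 31.9 CPM in carfilzomib-resistant cells (-1.27, adjusted p = 1.9e-10). ITGB1 rose from 56.1 to 115 CPM (0.85, adjusted p = 1.4e-08) and to 77.2 CPM (0.40, adjusted p = 8.3e-05).

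MAL encodes a proteolipid of membrane rafts, and per length it came after SPP1 with 160 RPKM in naive cells. Its naive libraries held 238, 224 and 237 CPM. The bortezomib-resistant libraries had 17, 13 and 16 reads and the carfilzomib-resistant ones 5, 8 and 9. CALCRL encodes the receptor subunit for adrenomedullin and calcitonin gene-related peptide. It held 217, 217 and 217 CPM in naive libraries, with 9, 2 and 1 reads in bortezomib-resistant and 31, 32 and 33 reads in carfilzomib-resistant ones. CD177, a surface glycoprotein known from neutrophils, went from 149, 157 and 153 CPM to 6 reads and 1 read over the groups. NTSR1 and PLXNA4, receptors for neurotensin and semaphorins, had 6 reads or fewer in each resistant group.

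Channels and transporters made up 7 genes, led by GRIA4, a subunit of AMPA-type glutamate receptors. GRIA4 held 81.4, 87.8 and 73.7 CPM in naive libraries, then 7, 2 and 2 reads in bortezomib-resistant and 4, 3 and 2 reads in carfilzomib-resistant ones. CACNG4, an auxiliary subunit of the same receptor class, went from 39.3 ± 2.48 CPM to a single read in all 6 resistant libraries. The proton-coupled folate transporter gene SLC46A1 went from 14.7 ± 0.348 CPM to 1 read and 0 reads. SLC16A9 kept the most of the transporters in bortezomib-resistant cells, at 1.35% of naive, and LAPTM4B in carfilzomib-resistant cells, at 1.90%.

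Proteases and matrix genes made up 7. PRSS1, PRSS3 and TRY6 encode trypsinogens or a close copy, and since their sequences are near-identical the split of reads between them is uncertain. PRSS1 held 61.2, 67.6 and 64.3 CPM in naive libraries, with 4, 0 and 2 reads in bortezomib-resistant and 18, 17 and 18 reads in carfilzomib-resistant ones. PXDN, which encodes peroxidasin, a crosslinker of collagen IV, held 77.4, 80.2 and 71.0 CPM in naive libraries. It had 3, 1 and 0 reads in bortezomib-resistant libraries and none in carfilzomib-resistant ones, where it was at least 3915-fold lower. COL5A1 (11.7 CPM in naive), PLOD2 (15.1 CPM), which modifies collagen lysines, and MEGF6 (13.1 CPM) had 2, 0 and 18 reads in the bortezomib-resistant group. In the carfilzomib-resistant group they had 9, 2 and 46 reads, which left MEGF6 at 2.37% of naive.

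The largest group, 19 genes, held GTPase regulators, cytoskeletal proteins and signalling adaptors. PCP4, a small calmodulin-binding protein, held 98.8, 118 and 102 CPM in naive libraries and 4, 1 and 0 reads in bortezomib-resistant ones. Its carfilzomib-resistant libraries had 42, 26 and 44 reads. ANXA1, a phospholipid-binding annexin, had the opposite order, with 27, 21 and 19 reads in bortezomib-resistant and 8, 5 and 4 in carfilzomib-resistant libraries, from 41.2, 48.2 and 40.6 CPM in naive ones. ARHGAP15, a Rac GTPase-activating protein, kept 3 reads in the bortezomib-resistant group and 191 in the carfilzomib-resistant group, from 45.9 ± 3.96 CPM. CDC42EP1, a CDC42 effector, and ARHGEF4, a guanine nucleotide exchange factor, were at 0 in both, which puts them at least 381-fold and 440-fold lower in bortezomib-resistant and 585-fold and 677-fold lower in carfilzomib-resistant cells.

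Transcription and chromatin genes numbered 6. LBH, a transcription cofactor, held 114, 96.0 and 114 CPM in naive libraries, 2, 1 and 0 reads in bortezomib-resistant libraries and 0, 1 and 0 in carfilzomib-resistant ones. ETV1, an ETS-family factor, went from 60.9 ± 1.90 CPM to 4 and 3 reads over the groups, and HLTF, a helicase-like factor of DNA damage tolerance, from 28.4 ± 1.56 CPM to 12 and 6 reads. SOX13 differed between the lines, with 1 read in the bortezomib-resistant group and 49, 31 and 46 in the carfilzomib-resistant libraries, from 33.6 ± 2.67 CPM.

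Ubiquitin pathway and BTB-domain genes numbered 5. UBE2QL1, an E2-like ubiquitin-conjugating protein, held 31.5, 30.7 and 31.2 CPM in naive libraries and no read afterwards, so it was at least 1038-fold lower in bortezomib-resistant and 1595-fold lower in carfilzomib-resistant cells. KCTD12, an auxiliary subunit of GABA-B receptors, held 90.9, 87.2 and 93.7 CPM in naive libraries, 2, 0 and 0 reads in bortezomib-resistant ones and 43, 32 and 35 in carfilzomib-resistant ones. KLHL9, an adaptor of CUL3 ubiquitin ligases, went from 34.4 ± 0.513 CPM to 1 and 18 reads. The remaining 6 genes included GLUL, the glutamine synthetase gene, which went from 46.6, 46.6 and 45.0 CPM to 3 reads and 1 read over the groups. TMEM132E, a membrane protein of the receptor group, had no resistant read and was at least 531-fold and 816-fold lower.

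The resistant lines were also compared with each other. The rule did not use that contrast, but it used the same libraries and holds both groups under 1/32 of naive, so the counts over the 82 genes are conditioned on that choice. By edgeR's quasi-likelihood test over all 13910 genes tested, 28 of the 82 genes were called higher in carfilzomib-resistant cells and 10 lower, where 39.9% and 37% of all genes were called. Nothing is read from these shares, since most of the 82 passed the filter on low counts only through their naive libraries. In a fit of the 6 resistant libraries alone, 18 of them passed the filter, of which 13 were higher and 4 lower. Some of the 18 passed only through the line where they stood higher. Examples are CR2, with 1 bortezomib-resistant and 142 carfilzomib-resistant reads, and ANXA1, with 67 and 17. Nothing is therefore read from these counts either. Of the 44 genes not called in the shared fit, 37 had under 10 reads in each group. Without bortezomib-resistant library 1, 6 genes in the shared fit were called lower and 29 higher. SPP1, PXDN, CD177 and PRAMEF2 lost the call as lower, MEGF6 lost the call as higher, and IGFBP5 and PLXNA4 gained one.

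**Figure D2:**
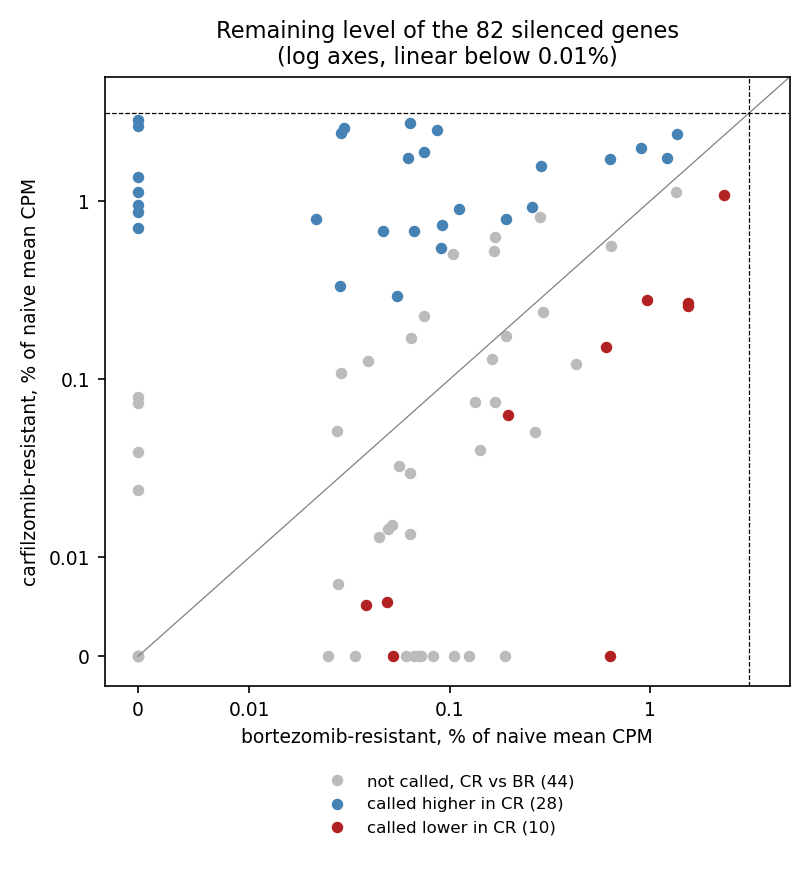
Share of the naive mean CPM that each of the 82 silenced genes kept in bortezomib-resistant (horizontal) and carfilzomib-resistant cells (vertical), on log axes that are linear below 0.01%. Dashed lines mark 3.125%, the diagonal marks equal shares, and colour marks the edgeR call in the fit shared with naive cells. In it 28 genes were called higher (blue) and 10 lower (red) in carfilzomib-resistant cells, where 39.9% and 37% of all genes were called. Most of the 82 passed the filter on low counts only through naive libraries, so nothing is read from these counts.

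The genes that stood highest in carfilzomib-resistant over bortezomib-resistant cells had almost no bortezomib-resistant reads. CLIP4, a relative of microtubule-binding CLIP proteins, had 0 reads in that group and 24, 19 and 32 in the carfilzomib-resistant libraries, at least 16.3-fold higher (log2 difference 7.39 ± 0.735 SE). KLHL29 had 0 and then 18, 17 and 11 reads, at least 9.98-fold higher. The potassium channel gene KCNK1 had 0 and then 8, 5 and 10 reads, at least 4.99-fold higher. KLHL29 and KCNK1 passed the filter only through naive cells, and CLIP4 only through groups where it stood higher, so their values are given with no p. The fitted difference of CLIP4 depends on how a count of 0 is handled, and its bound does not.

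CR2 was 92.4-fold higher in carfilzomib-resistant cells, with a counting interval of 16.3 to 3674 that reflects its single bortezomib-resistant read (6.26 ± 0.455). SOX13 was 82.0-fold higher, with an interval of 14.5 to 3263 (6.09 ± 0.504). CR2 and SOX13 also passed the filter only through groups where they stood higher, so no p is given for them. For all 5 of these genes every carfilzomib-resistant library was above every bortezomib-resistant one, and all 5 were still under 2.9% of naive. CD9 was 3.50-fold higher (1.93 ± 0.187, edgeR adjusted p = 1.4e-07) on larger counts than any other silenced gene.

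In the other direction, C1orf173 had 6, 5 and 7 reads in bortezomib-resistant libraries and none in carfilzomib-resistant ones, at least 9.22-fold lower there. ANXA1 was 6.06-fold lower (-2.44 ± 0.341) and CD81 4.10-fold lower (-1.88 ± 0.420), and both also passed the filter in the 6 resistant libraries alone. They did so through bortezomib-resistant libraries, where they stood higher, so no p is given for them. The ephrin gene EFNA5 was 5.64-fold lower (counting interval 2.22 to 17.0) and SPP1 8.92-fold lower (3.41 to 29.5). C1orf173, EFNA5 and SPP1 passed only through naive cells, and the call of SPP1 in the shared fit was lost without bortezomib-resistant library 1 (-1.50, adjusted p = 0.0786). CD177 and PXDN were called lower on fewer than 10 reads in each group, and lost the call without that library too.

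Other genes of plasma cell, B cell, adhesion, receptor, MAF target, chromatin, metabolism and niche factor lists were then examined, leaving silenced genes out of the counts. Of the 8 lists, those of adhesion molecules, B cell genes and secreted niche factors held silenced genes. Over all of these lists, 192 other genes were tested. Against naive cells, 112 of them were lower and 62 higher in bortezomib-resistant cells, where 41.6% of all genes tested were called lower and 38.2% higher. In carfilzomib-resistant cells 88 were lower and 72 higher, with 36.7% and 35% of all genes called. Both comparisons share the naive libraries. Some list genes passed the filter on low counts only through a group where they stood higher. CD22, with 154, 3 and 0 reads in naive, bortezomib-resistant and carfilzomib-resistant cells, passed through naive cells. VCAM1, with 0, 601 and 2 reads in the same order, passed through bortezomib-resistant cells. Nothing is therefore read from the list counts or medians here and below.

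Among adhesion molecules, the list that held ITGA4, CD9 and CD81, 20 of 31 other genes were lower and 8 higher in bortezomib-resistant cells (median log2 fold change -1.58), and 19 were lower and 7 higher in carfilzomib-resistant cells (median -0.63). NCAM1 (CD56), a surface marker of many myelomas, fell from 143 ± 3.98 CPM to 3 reads in bortezomib-resistant cells but to 91.0 ± 3.18 CPM in carfilzomib-resistant cells. CADM1, a cell-cell adhesion molecule, fell in both, from 116 ± 2.68 to 21.1 ± 0.732 and 3.08 ± 0.380 CPM. CD44, a receptor for hyaluronan and osteopontin, rose from 6.86 ± 0.382 to 37.8 CPM (2.27, edgeR adjusted p = 1.4e-13) and 11.6 CPM (0.69, adjusted p = 4.8e-07).

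B cell genes, the list with CR2 and FCER2, gave different counts in the resistant lines. In bortezomib-resistant cells 18 of 22 other genes were lower and 3 higher (median -2.28), and in carfilzomib-resistant cells 9 were lower and 11 higher (median 0.08). SYK, a tyrosine kinase that relays B cell receptor signals, fell from 145 ± 3.04 CPM to 6 reads in bortezomib-resistant cells and rose to 216 ± 8.24 CPM in carfilzomib-resistant cells (0.52, edgeR adjusted p = 6.1e-07). LYN and BTK, kinases of the same pathway, stood in the same order, with LYN at 14.1, 0.00971 and 68.0 CPM and BTK at 50.8, 0.663 and 253 CPM in naive, bortezomib-resistant and carfilzomib-resistant cells.

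Secreted niche factors, the list with SPP1 and HGF, had 10 of 18 other genes lower and 8 higher in bortezomib-resistant cells, and 7 lower and 5 higher in carfilzomib-resistant cells. CXCL12, the marrow-homing chemokine, fell from 166 ± 5.29 to 17.4 ± 0.555 and 19.7 ± 1.09 CPM. CXCL10, which attracts T cells and is induced by interferon, rose from 13.0 ± 0.697 to 683 ± 10.3 and 313 ± 10.1 CPM. Among plasma cell identity genes, none of which was silenced, 15 of 20 were lower and 5 higher in bortezomib-resistant cells and 18 lower and 2 higher in carfilzomib-resistant cells. Of those at 10 CPM or more in naive cells, CAV1, the caveolin-1 gene, came closest, at 195 ± 8.87 CPM in naive and 17.1 ± 1.87 and 7.34 ± 0.634 CPM in the resistant lines.

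The transcription factor gene MAF, known in myeloma for driving integrin β7 and cyclin D2, stayed high at 1583 ± 121 CPM in naive, 1367 CPM in bortezomib-resistant and 1147 CPM in carfilzomib-resistant cells (-0.40 and -0.53, edgeR adjusted p = 1.6e-05 and 1.0e-06). Of the 13 genes in the list of MAF and its reported targets, 10 were lower and 2 higher in bortezomib-resistant cells and 9 lower and 2 higher in carfilzomib-resistant cells. CX3CR1, a chemokine receptor in that list, fell from 783 ± 28.5 to 6.75 ± 0.465 CPM in bortezomib-resistant cells and to 477 ± 11.3 CPM in carfilzomib-resistant cells. Of 32 chemokine and cytokine receptor genes, 16 were lower and 14 higher in the first line and 12 lower and 18 higher in the second. Of 19 genes of serine and one-carbon metabolism, 14 were lower and 3 higher in bortezomib-resistant cells and 4 lower and 9 higher in carfilzomib-resistant cells. PHGDH, which begins serine synthesis, went from 118 ± 2.36 CPM to 8 reads in the first and stood at 130 ± 2.44 CPM in the second (0.07, edgeR adjusted p = 0.385).

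Enzymes and readers of DNA methylation and repressive histone marks, the machinery of long-lived gene silencing, moved in both directions, with medians near 0. Of 40 such genes, 12 were lower and 19 higher in bortezomib-resistant cells (median 0.11), and 13 were lower and 18 higher in carfilzomib-resistant cells (median 0.12). DNMT1, the maintenance methyltransferase, stood at 339 ± 17.1, 328 and 364 CPM. DNMT3B, a de novo methyltransferase, rose from 6.86 ± 0.232 to 20.3 ± 1.15 CPM in bortezomib-resistant cells (1.38, edgeR adjusted p = 1.4e-10) and fell to 5.04 ± 0.161 CPM in carfilzomib-resistant cells (-0.51, adjusted p = 4.9e-05).

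TET1, which oxidises methylated cytosine, followed the same split, from 2.79 ± 0.343 to 11.6 ± 0.859 and 0.446 ± 0.106 CPM. TET2, of the same family, rose in both lines, from 9.32 ± 0.664 to 28.5 ± 1.59 and 19.1 ± 0.747 CPM. HDAC1, a histone deacetylase, also rose in both, from 114 ± 3.62 to 274 ± 4.49 CPM (1.08, edgeR adjusted p = 1.5e-11) and 174 ± 4.36 CPM (0.55, adjusted p = 8.0e-08). EZH2, the Polycomb methyltransferase, fell from 145 to 102 CPM in bortezomib-resistant cells (-0.69, adjusted p = 4.8e-09) and stood at 164 CPM in carfilzomib-resistant cells (0.12, adjusted p = 0.0430). KDM5B, a histone demethylase singled out after its values were seen, had 105 reads in the naive group, 0 in the bortezomib-resistant group and 159 in the carfilzomib-resistant group. Whether any of these levels bears on the 82 genes was not tested.

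**Figure D3:**
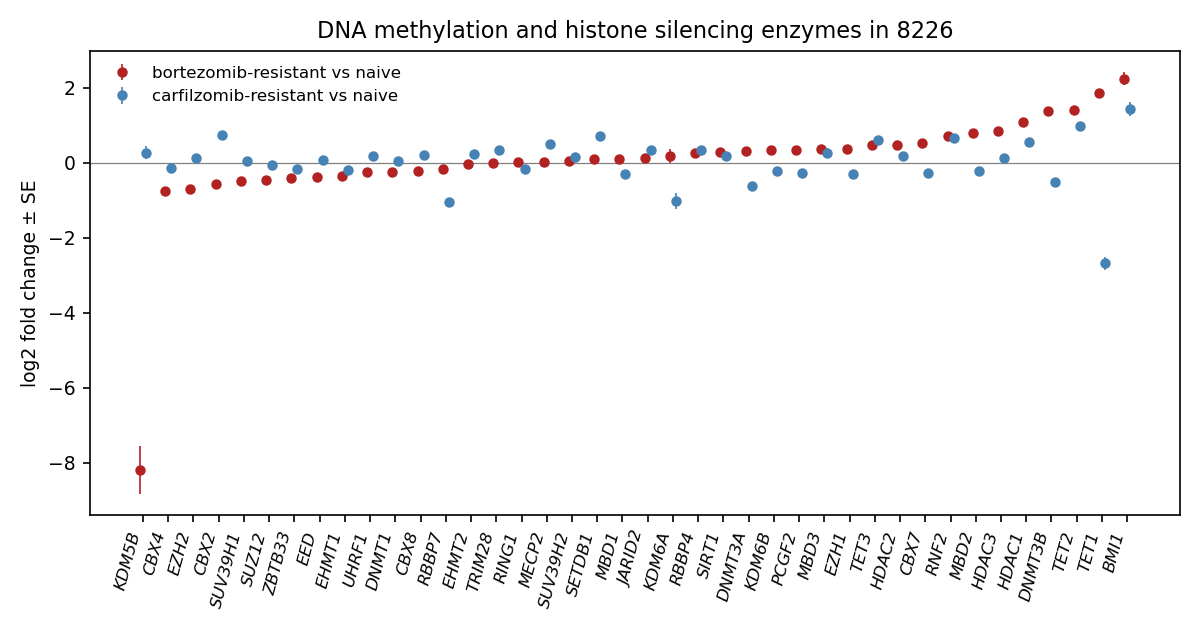
Log2 fold change against naive 8226 with its SE for the 40 genes of DNA methylation and histone silencing, in bortezomib-resistant (red) and carfilzomib-resistant (blue) cells, ordered by the first. Most lie near 0, with DNMT3B and TET1 up in red and down in blue, and KDM5B, at 0 reads in bortezomib-resistant cells, at the left edge.

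The 82 genes were spread over 19 of the 22 autosomes, with the most on chromosome 2 (13), chromosome 1 (10) and chromosome 7 (7), and none on 6, 14 or 16. Of the genes at 10 CPM or more they were 2.20% on chromosome 2, 1.10% on chromosome 1 and 1.67% on chromosome 7, against 0.975% over all autosomes. The share was highest on chromosome 13 (2.74%), then on chromosome 18 (2.26%). Among chromosomes with a silenced gene it was lowest on chromosome 19 (0.355%). In gene order of the RefSeq annotation (GRCh38.p14), 81 could be placed. The next gene on each side with at least 1 CPM in naive cells was taken as a neighbour. Of 152 such neighbours that were not silenced genes themselves, 103 (67.8%) kept at least 50% of their naive level in both resistant lines, compared with 81.8% of 11213 placed genes at 1 CPM or more. Below 1/32 of naive were 26 neighbours in bortezomib-resistant cells (17.1%, against 6.45% of all placed genes) and 10 in carfilzomib-resistant cells (6.58%, against 2.88%).

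For 35 of the 81 genes both neighbours kept at least 50% of naive in both lines, so that, among placed genes, a single silenced gene lay between active ones. UBE2QL1 is one, between MED10 (20.4 CPM in naive, 35.3 and 23.0 CPM in the resistant lines) and NSUN2 (143, 153 and 159 CPM). SPP1 is another, with PKD2 next to it at 20.6 CPM in naive and 12.1 and 12.3 CPM in the resistant lines. On its other side lay the pseudogene HSP90AB3P (5.91, 5.92 and 6.20 CPM), whose reads may come from a near-identical copy elsewhere. KLHL9 lay between KIAA1797 (45.3, 91.7 and 57.6 CPM) and MTAP (122, 87.1 and 108 CPM). PRSS1 was also among the 35, but the silenced gene that could not be placed, TRY6, is on chromosome 7 too. PRSS1 may therefore not stand alone.

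Among the placed genes, silenced genes were each other's neighbours in 4 places: NTF3 and CD9, IGFBP2 and IGFBP5, SEMA3C and HGF, and COL5A1 and OLFM1. At the first, TNFRSF1A on the far side of CD9 held 35.6 CPM in naive and 21.2 and 23.8 CPM in the resistant lines. At SEMA3C and HGF the next gene after HGF was SEMA3A, at 14.4 CPM in naive, 3.33 CPM in bortezomib-resistant and 0.117 CPM in carfilzomib-resistant cells. GNAI1, on the far side of SEMA3C, held 4.21 CPM in naive, 34.3 CPM in bortezomib-resistant and 0 CPM in carfilzomib-resistant cells. In 7 further places a neighbour was below 1/32 of naive in both lines but under 10 CPM in naive cells: DSCAM next to PCP4, the imprinted H19 next to CD81, DGKB next to ETV1, ARHGAP22 next to VSTM4, CDH18 next to BASP1, TMEM133 next to ARHGAP42 and CTNNA3 next to LRRTM3. CALCRL had neighbours that differed between the lines, since FAM171B and TFPI kept 0.489% and 0.943% of naive in bortezomib-resistant but 31.7% and 53.5% in carfilzomib-resistant cells.

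**Figure D4:**
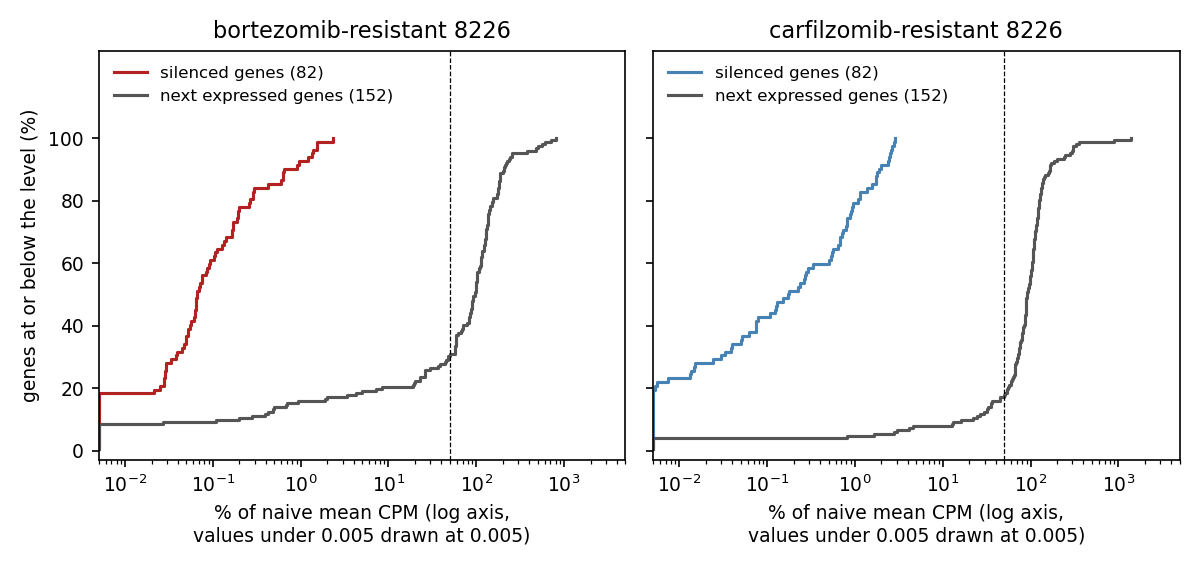
Cumulative share of genes at or below each level, in percent of the naive mean CPM on a log axis, for the 82 silenced genes (colour) and the 152 neighbours (grey) in bortezomib-resistant (left) and carfilzomib-resistant cells (right). The dashed line marks 50%, and the neighbours' median lies at 96.6% on the left and 91.1% on the right.

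The mouse line 5TGM1 offered libraries that the rule had not used. Of the 82 symbols, 77 matched a mouse gene when case was ignored, a match of names and not of orthologs. Most were not expressed there: 58 were under 1 CPM in both mouse groups, and 14 reached 10 CPM in naive 5TGM1. Of the 27 that could be tested, 14 were lower in bortezomib-resistant 5TGM1 (51.9%, against 33.2% of all mouse genes tested) and 6 were higher (22.2%, against 34%). None at 1 CPM or more fell below 1/32 of naive, and the lowest ratio was 0.241. The median log2 change of the 27 was -0.24, against 0.00 for all mouse genes tested. Some of the 27 were under 1 CPM and passed the filter on low counts only through the group where they stood higher. Nothing is therefore read from these shares or from the median.

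**Figure D5:**
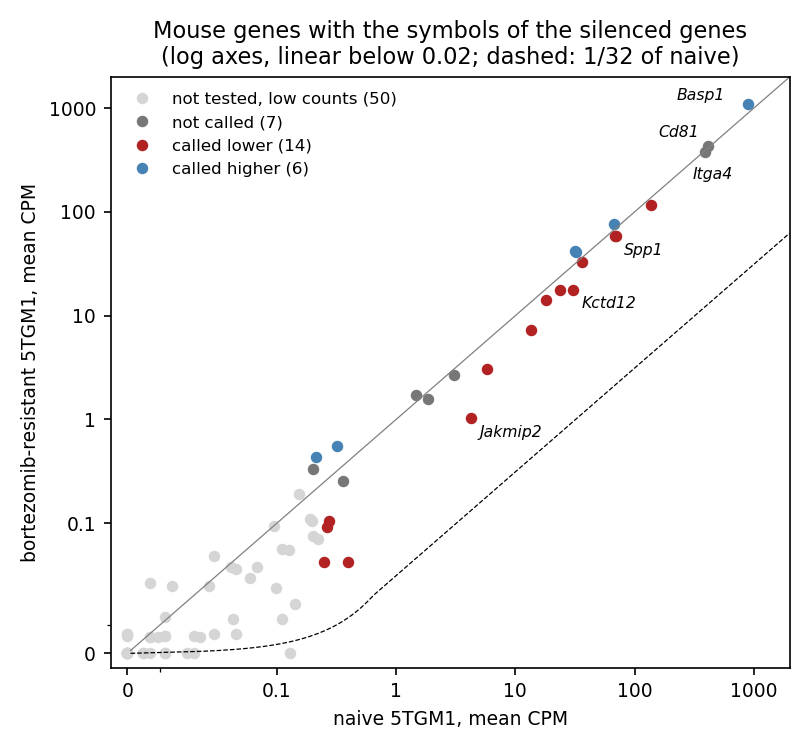
Mean CPM in naive (horizontal) and bortezomib-resistant 5TGM1 (vertical) of the 77 mouse genes that share a symbol with a silenced gene, on log axes that are linear below 0.02. The solid line marks equal levels and the dashed line 1/32 of naive, and no gene at 1 CPM or more reaches the dashed line.

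Among genes at 1 CPM or more, Jakmip2, a microtubule-associated protein gene, had the largest loss. Its naive libraries held 4.14, 4.57 and 4.09 CPM and its bortezomib-resistant ones 0.884, 0.829 and 1.36 CPM (-2.08 ± 0.140, edgeR adjusted p = 1.4e-09), with no overlap. Pstpip2 fell from 5.82 ± 0.875 to 3.06 ± 0.126 CPM (-0.92), Arhgap15 from 13.5 ± 0.0730 to 7.34 ± 0.275 CPM (-0.88) and Kctd12 from 30.6 ± 0.967 to 17.8 ± 0.575 CPM (-0.78). Smaller falls were those of Calcrl, from 23.7 ± 2.45 to 17.6 ± 0.573 CPM (-0.43), and Slc46a1, from 18.0 ± 0.370 to 14.1 ± 1.05 CPM (-0.35). Spp1 held 72.6, 66.8 and 68.2 CPM in naive and 57.5, 58.3 and 58.7 CPM in resistant libraries, a fall without overlap (-0.25 ± 0.0433, edgeR adjusted p = 8.5e-05).

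Of the other genes called lower, Hltf, Myef2 and Klhl9 fell by 0.24, 0.24 and 0.17 on the log2 scale. Cd9, Kcnk1, Sox13 and Plxna4 were under 1 CPM and passed the filter on low counts through their naive libraries, so they are given with no p. Of these, Cd9 fell from 64 to 7 reads over the groups (-3.06 ± 0.536). Some matches were not called or rose. Itga4 held 384, 428 and 366 CPM in naive and 392, 352 and 387 CPM in resistant mouse libraries, which overlap (-0.06 ± 0.0540, edgeR adjusted p = 0.350). Cd81 held 401, 410 and 432 CPM and 418, 450 and 431 CPM, which also overlap (0.06 ± 0.0440, adjusted p = 0.210). Lgals8 rose from 31.6 ± 1.42 to 41.8 ± 0.873 CPM (0.40), Etv1 from 32.1 ± 1.72 to 41.2 ± 0.820 CPM (0.36), Basp1 from 887 ± 32.7 to 1098 ± 130 CPM (0.31) and Ralgps2 from 67.5 ± 1.96 to 76.7 ± 1.50 CPM (0.18). The largest rises on the log2 scale were at genes under 1 CPM: Bai1, from 37 to 71 reads (1.00), and Megf6, from 53 to 89 reads (0.81). The difference between the human and the mouse changes was not tested, because the human changes chose the genes.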

How the data were processed

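The authors deposited whole-number read counts per gene for each library, not normalized, in the layout of STAR's gene counts. The submitters' processing notes name STAR, with its version and the annotation release not given in the sources used here, and those notes name the builds hg19, GRCh37, mm10 and GRCm38 without assigning them to files. Column 4 was used, the strand that holds nearly all stranded reads, since the other one held 1.43% to 1.64% in 8226, and the first 4 rows, which name no gene, were left out. Levels are CPM on column sums, as mean ± SD over 3 libraries. RPKM was computed with exon lengths from GENCODE.

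Human symbols were matched to RefSeq (GRCh38.p14) for chromosome and gene order only, which placed 21995 genes (19845 exactly, 2150 by synonym). Another 113 genes at 10 CPM or more had no chromosome, and 0 of them passed the fold. Fits used edgeR 4.0.16 in R 4.3.3, with TMM scaling, filterByExpr, quasi-likelihood F tests and Benjamini-Hochberg adjustment over all genes, called below 0.05. All 9 8226 libraries shared a fit, as did the 6 of 5TGM1. The fitting was tested on simulated data. Within groups, no pair of libraries agreed within sampling noise (chi-square per degree of freedom 3.98 to 25.8). Alternatives included DESeq2 1.42.0, unscaled libraries, no filter and leaving out each library.

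Genes with near-identical copies are uncertain, among them PRSS1, PRSS3, TRY6, SFTPA1, CNTNAP3, PRAMEF2 and CD177. The silenced genes, their roles and the gene lists were chosen with earlier results of these data known. Genes are named by naive level, list membership, a count of 0 in both lines, nearness to a threshold, position beside each other, or the size of a called difference between the resistant lines or in mouse, and up to 4 other genes per list by fold at 10 CPM or more. Exceptions, such as the partners of a named gene, were chosen after their values were seen.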

Additional observations from a re-analysis of the deposited data

Results flagged for a closer look

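For 10 silenced genes named above, what the resistant lines kept differed in the fit shared with naive cells, and the rule had chosen the genes by these same groups. On the log2 scale, carfilzomib-resistant cells stood higher for CLIP4 (7.39), KLHL29 (6.70), CR2 (6.26), SOX13 (6.09) and KCNK1 (5.71), and lower for C1orf173 (-5.85), SPP1 (-2.92), ANXA1 (-2.44), EFNA5 (-2.29) and CD81 (-1.88). KLHL29, KCNK1, C1orf173, EFNA5 and SPP1 did not pass the filter on low counts in the resistant libraries alone, and SPP1 lost its call without bortezomib-resistant library 1 (adjusted p = 0.0786, edgeR). CLIP4, CR2, SOX13, ANXA1 and CD81 passed it there only through the line where they stood higher.

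Among genes with at least 100 opposite-strand reads in a resistant group, such reads were higher there than in naive cells at 2 silenced genes. At FHOD3, a formin that nucleates actin, they stood at 1.03 ± 0.143 CPM in naive, 2.02 ± 0.231 CPM in bortezomib-resistant and 1.34 ± 0.135 CPM in carfilzomib-resistant libraries. At COL5A1, a fibrillar collagen gene, they stood at 5.37 ± 0.117 CPM in naive, 0.00971 CPM in bortezomib-resistant (1 read) and 8.09 ± 0.897 CPM in carfilzomib-resistant libraries, while own-strand reads were nearly lost in both lines. On 63 bortezomib-resistant reads, the opposite strand of HLTF stood at 0.193 ± 0.0570 CPM in naive, 0.630 ± 0.105 CPM in bortezomib-resistant and 0.135 ± 0.0573 CPM in carfilzomib-resistant libraries.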

How the results depend on the processing

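The number of silenced genes was 130 with a naive minimum of 5 CPM and 45 with one of 20 CPM. It was 79 without regard to strand, 87 with TMM-scaled libraries, 104 at 1/16 and 68 at 1/64 of naive, 77 when every resistant library had to lie below 1/32 of the lowest naive one, and 81 to 85 when a library was left out. In the fit of the 6 resistant libraries alone, 18 of the 82 genes passed the filter, and 4 were lower and 13 higher in carfilzomib-resistant cells, with fewer genes tested. Some of the 18 passed only through the line where they stood higher. When a library was left out, 6 to 12 were lower and 26 to 29 higher, the lowest without bortezomib-resistant library 1, and without that library SPP1 was no longer called (-1.50). Against all promoters, the share of CpG-rich ones set beside the silenced genes was 46.9%. Of 1357 alternative values, 1350 kept direction and side of the threshold or stayed near the value reported, and 0 reversed.

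Library size without TMM moved the median log2 change of all genes by 0.18 (bortezomib-resistant against naive), 0.06 (carfilzomib-resistant against naive) and -0.10 (carfilzomib-resistant against bortezomib-resistant). Replicate numbers did not pair the samples (correlations of -0.22 to 0.33 between same-numbered libraries), and with the replicate number as a block 10 silenced genes were lower and 29 higher in carfilzomib-resistant than bortezomib-resistant cells, 111 and 62 list genes were lower and higher in bortezomib-resistant and 88 and 70 in carfilzomib-resistant cells, and 14 and 6 mouse genes. Depth limits levels under about 0.03 CPM per group.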
